A study of Mus musculus with 2 samples.

Results

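The transcripts followed here are those of 5 genes of zinc handling in lung endothelial cells (ECs): the metallothioneins Mt1 and Mt2, the zinc exporter Slc30a1, the zinc importer Slc39a14 and the metal-sensing transcription factor Mtf1, 5 of the 31053 genes counted. They were chosen by name after the levels of Mt1 and Mt2 in these libraries were known, so the levels below are a description and carry no test. Lungs of wild type C57BL/6 mice were taken 6 h after an injection into the tail vein, and PECAM1-sorted cells were sequenced one by one. The control library came from mice given phosphate-buffered saline (PBS). The metastatic library came from mice given 200000 cells of B16-F10, a melanoma line of the same mouse strain, per mouse. The cells of 2 mice were pooled in each library and each group held 1 library, so no difference between the groups has a replicate check, and every interval below is a 95% interval that covers counting error only. The unit is the unique molecular identifier (UMI), 1 captured RNA molecule, and levels are UMIs per 1000000 UMIs of the class (CPM).

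Barcodes with 1000 to 5000 genes and under 20% mitochondrial UMIs were kept, 7134 control and 6466 metastatic, with medians of 6272.5 and 6526.5 UMIs. ECs were placed in classes by detected markers. Aerocyte capillary cells (aCap) had 2 or more of Ednrb, Fibin and Tbx2 (1364 control and 1086 metastatic barcodes), vein cells 2 or more of Slc6a2, Car8 and Bst1 (247 and 304), and artery cells 2 or more of Gja5, Bmx and Fbln5 (63 and 59). General capillary cells (gCap) had 2 or more of Gpihbp1, Aplnr, Kit and Lpl and met none of the other rules (5020 and 4519). The endothelial markers Pecam1, Cdh5, Cldn5, Tek and Kdr were detected in every class, at a summed 3980 to 8076 CPM. The gCap class also held epithelial markers at a summed 1689 CPM (control) and 993 CPM (metastatic), and myeloid markers at 357 and 239 CPM. Red cell markers were at 1959 and 824 CPM and platelet markers at 176 and 272 CPM, and the subset described next left red cell markers at 1987 and 834 CPM. The part of red cell and platelet RNA in the differences below was not tested. Most Mt1 and Mt2 values by class are therefore also given over endothelial-led barcodes, a subset chosen after seeing the data. Values of other genes and of gene lists are over all barcodes of a class unless this subset is named. The subset took barcodes with 3 or more of the 5 endothelial markers and more endothelial than lymphoid, myeloid, mesenchymal and epithelial marker UMIs. It held 4910 control and 4408 metastatic gCap barcodes, in which epithelial markers were at 142 and 115 CPM and myeloid markers at 56.0 and 56.8 CPM. A total of 16 barcodes were called in both libraries, where 6.79 would be by chance pairing of unrelated lists.

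Metallothioneins are small cysteine-rich proteins that bind zinc and copper in the cytosol. When free zinc rises, the zinc finger protein MTF1 enters the nucleus, binds metal response elements and raises transcription of Mt1, Mt2 and Slc30a1. SLC30A1 (ZnT1) carries zinc out across the plasma membrane, and SLC39A14 (ZIP14) carries zinc, iron and manganese into the cell. Metallothionein genes are also known to respond to glucocorticoids, to cytokines that act through STAT3 and to oxidative stress.

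On GRCm38, Mt2 (ENSMUSG00000031762) lies on chromosome 8 at 94172664 to 94173568 and Mt1 (ENSMUSG00000031765) at 94179082 to 94180327, both on the plus strand and 5513 bases apart. Slc30a1 (ENSMUSG00000037434) lies on chromosome 1 at 191906767 to 191913247, Mtf1 (ENSMUSG00000028890) on chromosome 4 at 124802104 to 124849800, and Slc39a14 (ENSMUSG00000022094) on the minus strand of chromosome 14 at 70303469 to 70351425. The RefSeq promoter table of GRCm38.p6 matched 4 of the 5 genes. The bases before the first annotated start are shown for the genes known as direct MTF1 targets, 5′ to 3′ on the plus strand, because the levels of Slc30a1 and of the metallothioneins are compared below. Capitals mark cores of the metal response element, TGCACNC or TGCGCNC on either strand. The windows are chr8:94178839-94179081, chr8:94172368-94172617 and chr1:191906531-191906766.
Mt1: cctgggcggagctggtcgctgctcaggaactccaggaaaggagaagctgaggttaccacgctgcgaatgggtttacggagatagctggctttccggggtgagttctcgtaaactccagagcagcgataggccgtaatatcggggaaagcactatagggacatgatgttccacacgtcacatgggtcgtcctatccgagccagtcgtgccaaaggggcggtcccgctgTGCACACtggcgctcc
Mt2: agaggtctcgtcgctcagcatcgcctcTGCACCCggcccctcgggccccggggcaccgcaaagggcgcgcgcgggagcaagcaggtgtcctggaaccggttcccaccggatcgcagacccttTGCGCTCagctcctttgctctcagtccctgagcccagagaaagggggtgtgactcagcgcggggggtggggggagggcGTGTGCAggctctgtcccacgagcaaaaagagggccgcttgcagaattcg
Slc30a1: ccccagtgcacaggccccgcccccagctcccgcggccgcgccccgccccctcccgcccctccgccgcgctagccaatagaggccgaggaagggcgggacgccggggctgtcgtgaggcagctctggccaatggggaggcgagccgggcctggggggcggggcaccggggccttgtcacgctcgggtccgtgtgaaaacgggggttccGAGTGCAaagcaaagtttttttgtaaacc
In the 250 bases before the RefSeq start the search found 1 core for Mt1, 3 for Mt2, 1 for Slc30a1 and 0 for Mtf1. At least 1 core was present in 21.4% and at least 3 in 1.26% of 32851 promoters. Both metallothionein genes have further transcripts that start downstream. In the 129 bases between the first and the next Mt1 start there were 4 cores, a number reached in 0.100% of promoter windows cut to that length. In the 196 bases between the Mt2 starts there were 3, reached in 1.09%. The 30-base stretch with the most cores is shown for each gene, at chr8:94179086-94179115 for Mt1 and chr8:94172672-94172701 for Mt2.
Mt1 between starts: agctcTGCACTCcgcccgaaaagTGCGCTC
Mt2 between starts: gggcGTGTGCAggcggcgggggcGCGTGCA
A match is a description of the letters and does not show binding.

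In gCap, the class that supplied most cells, both metallothioneins were higher in the metastatic library. Mt1 was at 25.9 CPM in control gCap (24.2 to 27.8) and at 78.2 CPM in metastatic gCap (75.1 to 81.5), a log2 ratio of 1.59 (1.48 to 1.71). Mt2 was at 3.96 CPM (3.30 to 4.71) and 21.7 CPM (20.1 to 23.4), a log2 ratio of 2.45 (2.18 to 2.74). Over endothelial-led barcodes Mt1 was at 21.1 and 61.3 CPM and Mt2 at 3.72 and 19.1 CPM, with ratios of 1.54 (1.41 to 1.67) and 2.36 (2.07 to 2.66). The intervals of the libraries did not overlap for either gene in either set of barcodes. Over all gCap barcodes 24.7% of the genes with 100 or more UMIs had a ratio interval above 0, and 16.3% had one below 0. Both genes passed 2-fold, as did 0.873% of the 11220 genes with 100 or more UMIs in the upward direction, and 0.762% over endothelial-led barcodes. The choice of the genes used this contrast, so nothing is read from those shares. The median log2 ratio of all genes tested was 0.02. The other metallothioneins were almost absent: Mt3 had 0 and 1 UMIs and Mt4 had 0 UMIs in both gCap sums.

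In the remaining classes the direction differed between genes and between sets of barcodes. In aCap, Mt1 was at 38.9 CPM (control) and 20.8 CPM (metastatic), but 2 control barcodes held 163 and 143 of its 440 UMIs. Neither was endothelial-led: over endothelial-led aCap barcodes Mt1 was at 9.83 CPM (8.08 to 11.8) and 15.99 CPM (13.5 to 18.8), a ratio of 0.70 (0.34 to 1.07) in place of -0.90. For Mt2 in aCap the ratio was -1.07 over all and 1.31 (0.54 to 2.11) over endothelial-led barcodes, there from 22 and 45 UMIs. The direction in aCap therefore turned with 17 control and 17 metastatic barcodes that were not endothelial-led.

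In vein cells Mt1 was at 18.1 and 62.8 CPM over all barcodes, a ratio of 1.79, and at 18.6 CPM (13.3 to 25.3) and 22.9 CPM (17.3 to 29.8) over endothelial-led barcodes, a ratio of 0.30 whose interval (-0.31 to 0.93) held 0. The metastatic vein class carried epithelial markers at 3657 CPM against 125 CPM in the control vein class, and myeloid markers at 615 against 32.2 CPM. Vein Mt2 rested on 23 control and 13 metastatic UMIs with a ratio of -1.10 (-2.21 to -0.06), and over endothelial-led barcodes on 23 and 6 UMIs. In artery cells, metallothionein was highest of all classes in the control library and lower in the metastatic library. Artery Mt1 was at 381 CPM (329 to 440) in 63 control cells and 65.8 CPM in 59 metastatic cells, a ratio of -2.53 (-3.12 to -1.99), and Mt2 had 39 and 5 UMIs (-2.94, -4.64 to -1.60). Of the 188 control artery UMIs of Mt1, 91 came from 1 cell, and 5 cells held 215 of the 227 Mt1 and Mt2 UMIs. Artery mesenchymal markers were at 817 CPM (control) and 45.2 CPM (metastatic). Their part in the difference was not tested, but over endothelial-led artery cells the Mt1 ratio was -2.94 (-3.67 to -2.27). Without barcodes that had 2 or more markers of another cell type it was 2.08 (-0.08 to 5.29), so the artery direction turned with that choice. Past 2-fold were Mt2 downward in aCap (0.189% of genes tested), Mt1 upward in vein (1.02%) and Mt1 downward in artery cells (0.821%), contrasts that the choice of the genes also used.

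Endothelial-led barcodes that met no class rule, 178 control and 230 metastatic, showed the same direction as gCap. Mt1 was at 126 CPM (102 to 154) and 409 CPM (369 to 452) in them, a ratio of 1.70 (1.37 to 2.04). Mt2 was at 30.8 and 88.8 CPM (1.53, 0.85 to 2.26). Slc30a1 in the same barcodes was at 67.0 and 57.1 CPM, with overlapping intervals.

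**Figure D1:**
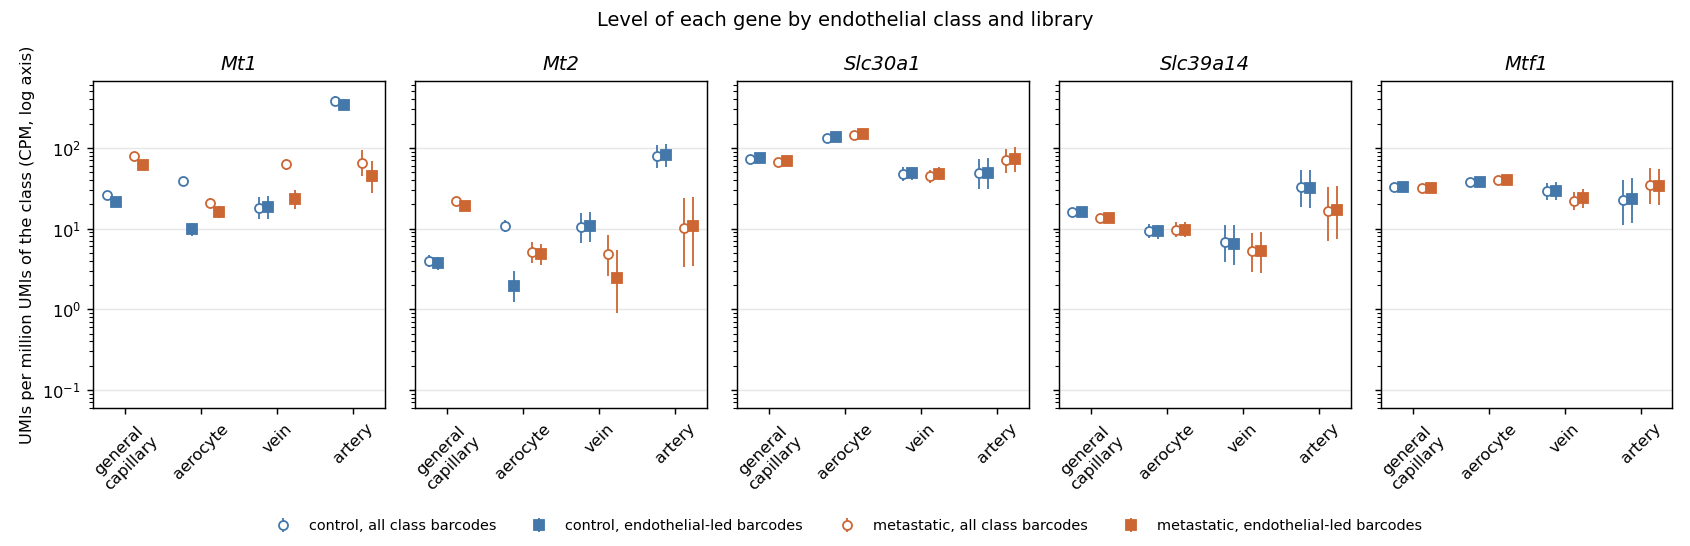
Level of Mt1, Mt2, Slc30a1, Slc39a14 and Mtf1 in CPM (log axis) by endothelial class, in the control (blue) and metastatic (orange) library. Open circles are all barcodes of a class and filled squares endothelial-led barcodes, with exact Poisson 95% intervals. Mt1 and Mt2 differ between the libraries and between the sets of barcodes, while Slc30a1 is highest in aCap in both libraries.

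**Figure D2:**
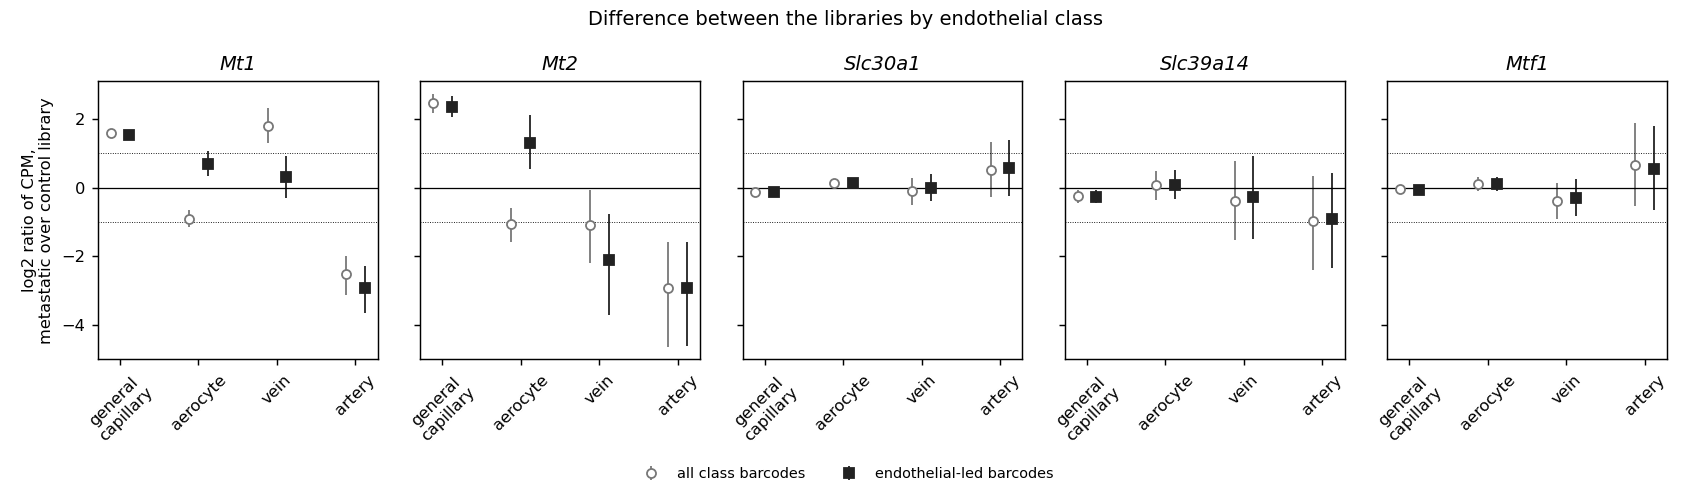
The log2 ratio of CPM, metastatic over control library, for each gene and class, with 95% counting intervals (open circles, all barcodes; filled squares, endothelial-led barcodes; dotted lines, 2-fold). The Mt1 and Mt2 ratios are above 2-fold in gCap in both sets and change sign in aCap, and the Slc30a1, Slc39a14 and Mtf1 ratios stay within 2-fold.

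The gCap signal sat in a small number of cells. Most gCap cells showed no metallothionein molecule: over all gCap barcodes 6.43% of control and 9.56% of metastatic cells had an Mt1 UMI, and 1.33% and 3.25% had an Mt2 UMI. After thinning each endothelial-led cell to 2000 UMIs, 2.41% of control cells (1.99 to 2.88) and 3.94% of metastatic cells (3.38 to 4.56) had an Mt1 UMI. Shares at this level cannot be told from free RNA. Barcodes with lymphoid markers, 40 per library with medians of 4614.5 and 5025 UMIs, had an Mt1 UMI in 0% of control cells (upper bound 8.81%) and 5.13% of metastatic cells (0.627 to 17.3) at the same thinned depth. Free RNA was rich in these transcripts: barcodes of 11 to 50 UMIs held Mt1 at 2434 CPM (control) and 2556 CPM (metastatic), and Mt2 at 510 and 509 CPM. The endothelial-led gCap level of Mt1 was 0.868% (control) and 2.40% (metastatic) of that in these barcodes.

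At the upper end the libraries stood apart. Of the 2370 metastatic gCap UMIs of Mt1, 17 cells held 50%, and the 2 highest cells held 158 and 122. In the control library 21 cells held 50% of 833 UMIs, and the highest cell held 155. With that highest cell left out in each library, the Mt1 ratio was 1.79 (1.66 to 1.92). Cells with 10 or more Mt1 and Mt2 UMIs, called metallothionein-high here, numbered 20 in control and 50 in metastatic gCap (0.398% and 1.11%), of which 11 and 39 were endothelial-led. Of the 20 control cells, 5 had most of their marker UMIs from myeloid and 3 from epithelial lists. Over all 50 metastatic cells endothelial markers were at 4509 CPM, against 5497 CPM in the other gCap cells, and epithelial markers at 7730 against 890 CPM. Myeloid markers were there at 1838 against 214 CPM and mesenchymal markers at 802 against 27.0 CPM. The 39 endothelial-led metastatic cells carried endothelial markers at 6166 CPM, against 5566 CPM in the other endothelial-led gCap cells. They had 0 UMIs of the melanoma markers Dct, Tyrp1, Pmel, Mlana and Tyr. The rule of that subset sets endothelial against myeloid, mesenchymal and epithelial markers, so its levels of these are no check of cell type. In the 39 cells myeloid markers were at 57.6 CPM against 56.7 CPM. Of the mesenchymal markers 7 of 8 were detected, at a summed 291 CPM against 25.5 CPM. Platelet markers were at 230 against 261 CPM, with 2 or more of them in 25.6% against 10.5% of cells. In the 11 control cells mesenchymal markers were at 325 against 29.4 CPM. The part of mesenchymal and platelet RNA was not tested. Of the 50 metastatic cells, 1 was among the 334 barcodes scored as doublets out of the 6466 metastatic barcodes. The count is too small to compare, and the part of doublets was not tested.

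Mt1 and Mt2 were found together more often than their separate shares would give. At 2000 UMIs per endothelial-led metastatic gCap cell, 172 cells had Mt1, 62 had Mt2 and 31 had both, where 2.44 would be the product of the shares. In the control library 117, 21 and 8 cells were counted, against 0.505. The cells of 1 library share their free RNA, so these counts are a description.

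The metastatic excess was concentrated in gCap cells with Inhbb, which encodes the activin beta B subunit and was itself at 5.25 CPM in control and 32.2 CPM in metastatic endothelial-led gCap. Inhbb was detected in 116 control and 338 metastatic gCap cells. In the metastatic library Mt1 was at 432 CPM in Inhbb-detected and 42.7 CPM in the other gCap cells, a log2 ratio of 3.34 (3.22 to 3.46), and Mt2 at 140 and 9.77 CPM, a ratio of 3.84 (3.61 to 4.07). Other markers differed with the split: over all barcodes epithelial markers were at 3018 CPM with and 790 CPM without Inhbb, and myeloid markers at 445 and 218 CPM. Over endothelial-led barcodes these were at 91.7 and 118 CPM and at 50.9 and 57.3 CPM, and mesenchymal markers at 49.0 and 26.1 CPM. The Mt1 and Mt2 ratios over endothelial-led barcodes were 3.90 (3.76 to 4.04) and 4.06 (3.81 to 4.31). Both genes were 2-fold or more higher with an interval above 0, as were 2.93% of 10199 genes, a contrast that the choice of genes used. Inhbb-detected cells were deeper, with a median of 7244 against 6193 UMIs. With every cell thinned to 2000 UMIs before the split the ratios were 4.31 (4.07 to 4.55) and 4.58 (4.14 to 5.03).

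In the control library the interval of the split held 0. There Mt1 was at 18.0 CPM in Inhbb-detected and 26.2 CPM in the other gCap cells (-0.54, -1.35 to 0.17), from 16 and 817 UMIs, and Mt2 had 2 UMIs in Inhbb-detected cells. The control direction turned with the barcodes kept: without those that had 2 or more markers of another cell type the Mt1 ratio was 1.32 (0.38 to 2.13). Among endothelial-led gCap cells with Inhbb, Mt1 was at 18.5 CPM (control) and 406 CPM (metastatic), a ratio of 4.45 (3.75 to 5.27). Among those without Inhbb it was at 21.2 and 27.2 CPM, a ratio of 0.36 (0.20 to 0.51). The latter metastatic level lies within the interval of the metastatic lymphoid barcodes, 10.1 to 60.1 CPM. The control level, 21.2 CPM (19.6 to 22.9), lies above the upper bound of the control lymphoid barcodes, 18.9 CPM from 0 UMIs. Mt2 without Inhbb was at 3.76 and 7.91 CPM, a ratio of 1.07 (0.74 to 1.41).

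The level followed the number of Inhbb UMIs in the metastatic library. Mt1 was at 27.2 CPM in 4081 endothelial-led gCap cells with 0 Inhbb UMIs, 68.5 CPM in 179 cells with 1, 351 CPM in 93 cells with 2 to 4, and 1467 CPM (1363 to 1578) in 55 cells with 5 or more. Mt2 was at 7.91, 8.38, 112 and 521 CPM in the same cells. The 55 cells with 5 or more Inhbb UMIs were 1.25% of these gCap cells and held 39.9% of their Mt1 and 45.4% of their Mt2 UMIs. The level was uneven even there: 54.5% of the 55 cells had an Mt1 UMI, and 19 had 5 or more. In the control library the 86 cells with 1 Inhbb UMI had Mt1 at 18.6 CPM and the 26 cells with 2 to 4 at 19.1 CPM. Only 2 control cells had 5 or more Inhbb UMIs, too few to compare.

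**Figure D3:**
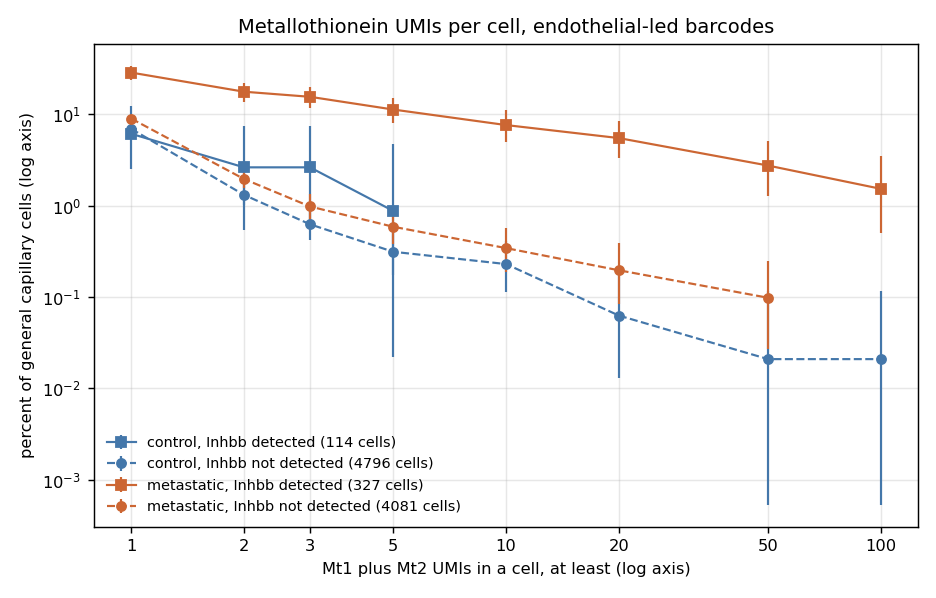
Share of endothelial-led gCap cells (percent, log axis) with at least the number of Mt1 plus Mt2 UMIs on the horizontal axis (log axis), by library and Inhbb detection, with exact binomial 95% intervals. Points at 0 are left out. The metastatic cells with Inhbb lie above the other groups from 1 UMI on, with 7.65% of 327 cells at 10 or more UMIs against 0.343% of 4081 cells without Inhbb and 0.229% of 4796 such control cells.

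**Figure D4:**
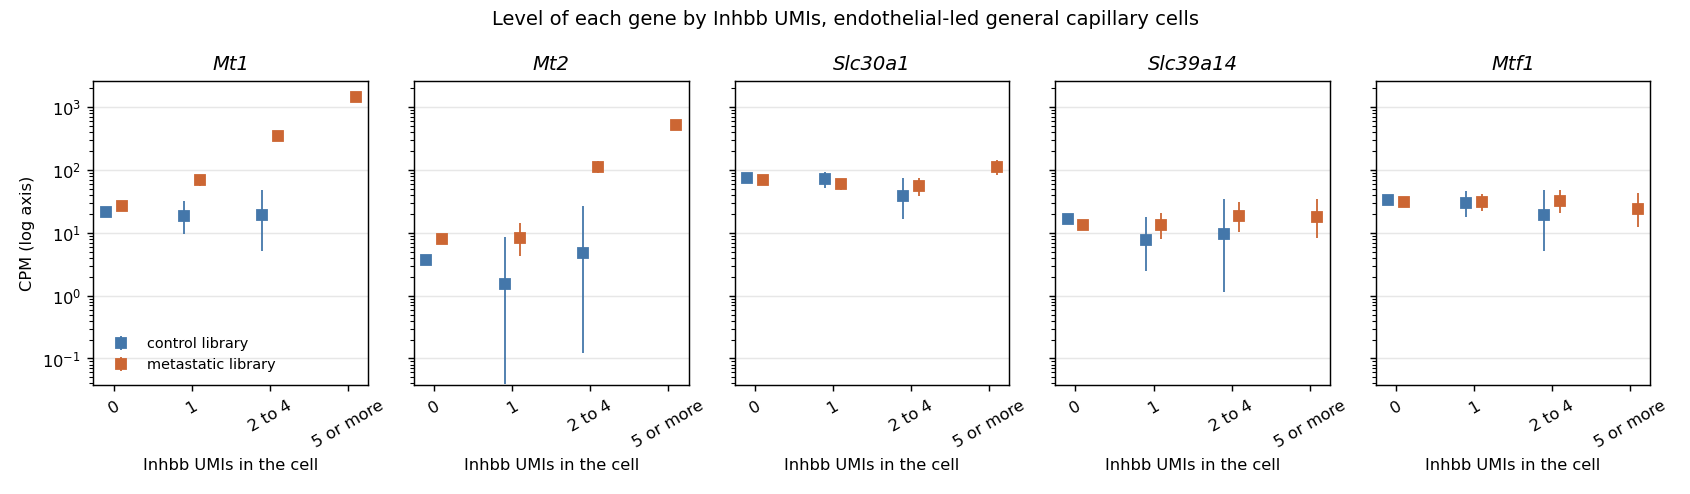
Level of each gene in CPM (log axis) by the number of Inhbb UMIs in endothelial-led gCap cells of the control (blue) and metastatic (orange) library, with exact Poisson 95% intervals, for bins of 20 or more cells. Mt1 and Mt2 are higher in the metastatic bins with more Inhbb UMIs, and Slc39a14 and Mtf1 show no such order.

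Among aCap cells the metastatic library showed a like split on fewer cells. Mt1 was at 71.6 CPM in 37 endothelial-led aCap cells with Inhbb and 13.4 CPM in 1032 without it, from 30 and 118 UMIs (2.42, 1.79 to 3.01). In the control library 12 such cells with Inhbb had 1 Mt1 UMI. Over all control aCap barcodes Mt1 was at 852 CPM with and 26.5 CPM without Inhbb, where 143 of the 144 Mt1 UMIs with Inhbb came from 1 barcode that was not endothelial-led.

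Slc30a1, the exporter whose gene MTF1 also drives, was not higher in metastatic gCap, where both metallothioneins were. In gCap it was at 73.0 CPM (control) and 67.3 CPM (metastatic), a ratio of -0.12 (-0.20 to -0.03). Its highest level was in aCap, at 134 CPM (127 to 141) and 146 CPM (138 to 154), with a ratio of 0.12 (0.02 to 0.23). Vein cells had 48.0 and 44.5 CPM and artery cells 48.7 and 69.9 CPM. Artery and vein differed by 0.02 (-0.69 to 0.67) in the control and 0.65 (0.06 to 1.21) in the metastatic library, and artery and gCap by 0.05 (-0.48 to 0.54) in the latter. Within the control library aCap exceeded gCap by 0.87 (0.78 to 0.96) and within the metastatic library by 1.11 (1.01 to 1.21) over endothelial-led barcodes, beyond counting error both times. Slc30a1 was also spread widely: 511 of the 5020 control gCap cells held 50% of its UMIs, and no cell had more than 6.

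By Inhbb, Slc30a1 was at 66.5 CPM in detected and 67.4 CPM in other metastatic gCap cells (-0.02, -0.25 to 0.20), so a difference as large as that of Mt1 lies outside its interval. In the 55 endothelial-led cells with 5 or more Inhbb UMIs it was at 111 CPM (84.0 to 145), against 68.4 CPM (65.3 to 71.6) in cells with none. In the 39 metallothionein-high cells it was at 112 CPM from 33 UMIs, against 67.9 CPM in the others, a ratio of 0.72 (0.18 to 1.21) beside 7.87 for Mt1 and 8.38 for Mt2, the genes that chose those cells. In the 11 control cells it had 5 UMIs, a ratio of -0.59 (-2.21 to 0.64).

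Slc39a14 was low in every class. In gCap it was at 16.1 CPM (14.7 to 17.6) and 13.5 CPM (12.2 to 14.8), a ratio of -0.26 (-0.45 to -0.07). It was at 9.27 and 9.70 CPM in aCap, 6.80 and 5.23 CPM in vein and 32.4 and 16.4 CPM in artery cells, the last from 16 and 8 UMIs. In order of level the classes ran artery, gCap, aCap and vein in both libraries, but the ratio of vein to aCap held 0 in the control library (-0.45, -1.33 to 0.34) and that of artery to gCap in the metastatic library (0.29, -0.93 to 1.28). Barcodes of 11 to 50 UMIs held Slc39a14 at 44.2 CPM (control) and 35.7 CPM (metastatic), and the control lymphoid barcodes had 0 UMIs, which allows up to 18.9 CPM. Its ratio between metastatic gCap cells with and without Inhbb was 0.30 (-0.18 to 0.75).

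Mtf1, the zinc sensor, was at 32.7 and 31.7 CPM in gCap (-0.05, -0.17 to 0.08), 37.3 and 40.0 CPM in aCap (0.10, -0.11 to 0.30), 29.01 and 22.0 CPM in vein cells and 22.3 and 35.0 CPM in artery cells. Every one of these ratios had an interval that held 0. Its ratio by Inhbb in the metastatic library was -0.09 (-0.43 to 0.24). Mtf1 overlaps 1110065P20Rik, a gene on the opposite strand that had 687 UMIs in each gCap sum, and their 50-base runs were shared for 7.55% of the Mtf1 transcripts. Gm45774 opposite Mt2 had 3 and 0 UMIs. No 50-base run of Mt1 was found in another gene's transcript.

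Of the wider zinc gene lists, 6 of 10 exporters (Slc30a family) and 10 of 14 importers (Slc39a family) had 100 or more UMIs over both gCap sums, and 0 of them passed 2-fold in either direction, as 1.21% of all genes tested did. Their median log2 ratios were -0.05 and 0.02, beside 0.02 over all genes. The exporters with the most UMIs were Slc30a1, Slc30a9, a mitochondrial zinc transporter, at 62.3 and 59.9 CPM, and Slc30a5, which fills the secretory pathway, at 29.3 and 26.4 CPM. The importers with the most UMIs were Slc39a1 at 64.9 and 73.3 CPM (0.18, 0.09 to 0.26), Slc39a6 at 58.4 and 66.4 CPM (0.18, 0.09 to 0.28) and Slc39a7, which releases zinc from the endoplasmic reticulum, at 62.9 and 56.8 CPM (-0.15, -0.24 to -0.05). Slc39a8, named after its value was seen, had the ratio farthest from 0 among the tested transporters, -0.48 (-0.87 to -0.08), from 137 and 93 UMIs.

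**Figure D5:**
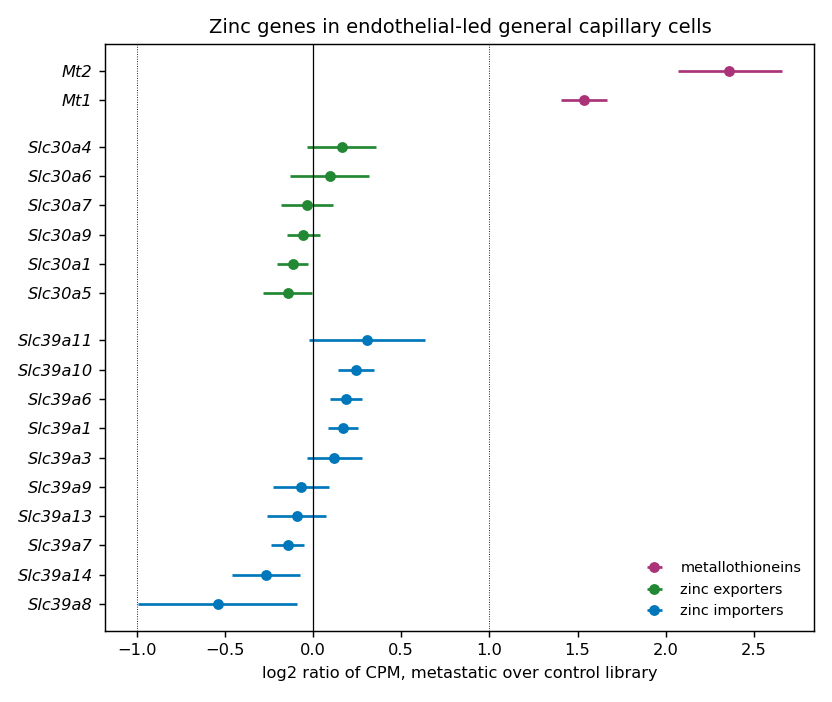
The log2 ratio of CPM, metastatic over control library, in endothelial-led gCap cells for each metallothionein, zinc exporter and zinc importer with 100 or more UMIs, with 95% counting intervals and dotted lines at 2-fold. Mt1 and Mt2 lie at 1.54 and 2.36, and the transporters lie between -0.54 and 0.30.

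Lists of genes that share regulators with the metallothioneins gave mixed counts in gCap. Of 5 MTF1 targets besides the metallothioneins, 0 passed 2-fold. Of all genes tested, 24.7% had an interval above 0 and 16.3% below 0. Of 8 glucocorticoid-responsive genes, 6 had intervals below 0 and 1 passed 2-fold: Zbtb16, a zinc finger repressor induced by glucocorticoids, was at 488 and 200 CPM (-1.29), where 0.339% of genes tested were 2-fold or more lower. The list median was -0.71. Over endothelial-led barcodes 5 of the 8 had intervals below 0 and 1 passed 2-fold. Of 10 IL6-STAT3 responsive genes, 8 had intervals above 0 and 1 passed 2-fold: Bcl3, a nuclear IkB family protein, was at 16.1 and 43.5 CPM (1.44). The list median was 0.28. Over endothelial-led barcodes 8 of the 10 had intervals above 0 and 2 passed 2-fold. In the NRF2 list, oxidative stress genes, 0 of 5 tested passed 2-fold, and 0 of 7 did so in each of the copper and iron handling lists. These lists were drawn up with results of the libraries known and share cells and controls with the values above.

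By Inhbb detection in metastatic gCap, 10 of 10 IL6-STAT3 responsive genes had intervals above 0 and 4 were 2-fold or more higher, with a list median of 0.58 beside -0.05 over all genes, of which 17% had intervals above 0. Of the 10, 4 had intervals above and 3 below 0 in the control library, with a median of 0.22, beside 6.8% and 6.39% of all genes. The study, whose data included these libraries, reported Bcl3, Osmr and Inhbb as markers of the same capillary cluster. It also reported Pim1 as raised in that cluster. Nothing is read from the part of these genes in the counts by Inhbb. In metastatic gCap 1 of the other MTF1 targets was 2-fold or more higher with Inhbb. The NRF2 list had a median of 0.61 there, with 4 of 5 intervals above 0 and 0 past 2-fold. In the control library the NRF2 list had a median of 0.50, with 3 of 5 intervals above 0 and 0 past 2-fold. The MTF1 target was Ndrg1, a stress-induced gene also raised by hypoxia, at 75.6 CPM in endothelial-led cells with Inhbb and 21.4 CPM in those without (1.82, 1.59 to 2.06). It was also higher with Inhbb in the control library, at 48.6 against 18.7 CPM (1.37, 0.89 to 1.83), where 1.65% of genes were called higher over all barcodes and neither metallothionein was. Exporters and importers had medians of 0.04 and -0.01.

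Over the 8 sums of class and library, the gene profiles most like that of Mt1 on log2(CPM + 1) were Plscr4, Spcs2, Rbm5, Chd2 and Scfd1, with Pearson r of 0.919 to 0.893. Those most like Mt2 were Nelfb, Smc1a, Lrrc8c, Smarcad1 and Ankrd46, with r of 0.909 to 0.839. Mt1 and Mt2 had an r of 0.834 with each other, and 0.929 over endothelial-led barcodes. The nearest genes changed with the barcodes. Over endothelial-led barcodes those of Mt1 were Smc1a, Nap1l1, Rbm5, Bbx and Tor1b, with r of 0.968 to 0.935. Those of Mt2 were then Azi2, Mt1, Smc1a, Stat3 and Nap1l1, with r of 0.947 to 0.903. The 8 sums come from 2 libraries and the artery sums are the smallest and set the highest values, so these are descriptions of likeness with no test.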

How the data were processed

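The deposited values were raw UMI counts: the authors ran Cell Ranger on mm10 and, per the file headers (version 3.1.0), deposited whole-number counts for the full barcode list, neither filtered nor normalized. The annotation release was not given in the sources used here, and positions were taken from GENCODE M21 on GRCm38. Totals were 67929614 UMIs (control) and 64733724 (metastatic). The study's cell filter was applied (1000 to 5000 genes, under 20% mitochondrial UMIs), which removed 2 control barcodes for mitochondrial content. Doublets were kept in the classes and left out as an alternative. Barcodes that met the rule of more than 1 of aCap, vein and artery (46 and 32) were left out of the classes.

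UMIs were summed per class and library. CPM carry exact Poisson intervals, ratios exact conditional binomial intervals and shares exact Clopper-Pearson intervals. UMIs limit each value through counting error only, and with 1 library per group no test across samples was possible. A gene was tested at 100 or more UMIs over both sums and called at 2-fold. Members and lists were chosen with earlier results of these data known. The text names the 5 genes, zinc genes with an absolute log2 ratio of 0.5 or more or among the 3 with most UMIs, other list genes past 2-fold in gCap, and the 5 nearest profiles. The code for ratios and intervals was run on simulated independent Poisson counts with known folds. That run does not cover UMIs gathered in few cells, as those of Mt1 and Mt2 were. Python 3.11.15, scipy 1.17.1, scikit-learn 1.9.0 and edgeR 4.0.16 (TMM) were used. Alternatives covered the cell filter, doublets, scaling, free RNA, shared barcodes, class rules, other cell types, single cells and thinning.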

Additional observations from a re-analysis of the deposited data

Results flagged for a closer look

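Over all barcodes of a class, the metallothioneins differed between the libraries in opposite directions in different endothelial classes, with intervals on opposite sides of 0. The difference between classes was not tested, since each class has 1 library per group. Over all class barcodes the Mt1 log2 ratio, metastatic over control, was 1.59 in gCap and 1.79 in vein, and -0.90 in aCap and -2.53 in artery cells. For Mt2 it was 2.45 in gCap, and -1.07 in aCap, -1.10 in vein and -2.94 in artery cells. Over endothelial-led barcodes the aCap values were 0.70 and 1.31, so the opposite direction there did not remain. The vein Mt1 ratio over endothelial-led barcodes was 0.30, with an interval (-0.31 to 0.93) that held 0. Artery Mt1 was at -2.94 over endothelial-led barcodes. It was at 2.08 without barcodes that had 2 or more markers of another cell type. Of its 188 control UMIs, 91 came from 1 cell. Epithelial markers in control aCap were at 632 CPM against 91.6 CPM in metastatic aCap. Of the 562 Mt1 and Mt2 UMIs in control aCap, 414 came from 3 barcodes, 2 of them led by mesenchymal and 1 by epithelial markers. The part of these cell types in the difference was not tested.

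Slc30a1 was at -0.12 in gCap and 0.12 in aCap and this difference was not tested either.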

How the results depend on the processing

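Values below are log2 ratios. Between the libraries in gCap, Mt1 stayed between 1.35 and 1.96 and Mt2 between 2.22 and 2.78 over 12 alternatives each. Mt1 was 1.35 without barcodes that had 2 or more markers of another cell type, 1.96 in cells with no other class marker and 1.79 without the top cell, and Mt2 was 2.78 without the 5 top cells. With free RNA subtracted, Slc30a1 was -0.62 and Mtf1 -0.47. That subtraction took 0.498 (control) and 0.285 (metastatic) of the gCap RNA and exceeded the Mt1 and Mt2 counts, so it gave no value for them. The Mt1 level in endothelial-led gCap was 0.868% and 2.40% of that in free RNA, far below those fractions, so the Slc30a1 and Mtf1 values after subtraction are doubtful. The cause of these shifts was not tested.

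By Inhbb in the metastatic library, Mt1 was 3.49 without doublets, 4.12 in cells with no other class marker, 3.90 over endothelial-led barcodes, 4.31 after thinning and 2.97 without the 5 top cells. Mt2 was 4.33, 4.58 and 3.50 with no other class marker, after thinning and without the 5 top cells. In the control library Mt1 was 1.32 without barcodes that had 2 or more other-type markers, -2.23 with no other class marker, 0.28 after thinning and -2.99 without the 5 top cells, and Mt2 was 1.11 under the first of these.

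The aCap direction of Mt2 reversed to 1.38 without barcodes with other-type markers, 1.31 over endothelial-led barcodes and 0.69 without the 5 top cells, and that of Mt1 in artery cells to 2.08 under the first. The endothelial-led, 5-cell and, for the Inhbb split, no-other-class-marker alternatives were chosen after seeing the data. No paired analysis was possible because each group held 1 library, and for the same reason no library could be left out. Few cells and UMIs limit the vein and artery values, and the free RNA level limits any low metallothionein value.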

Other observations

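The 39 endothelial-led metastatic gCap cells with 10 or more Mt1 and Mt2 UMIs also held high levels of other transcripts. These genes were chosen after their values were seen, from 2636 genes with 20 or more UMIs in those cells that were detected in at least a fixed share of them, ranked by log2 ratio to the other 4369 gCap cells. Fosl1, an AP-1 subunit, was at 112 CPM against 2.56 CPM and detected in 16 of the 39 cells. Myc was at 176 against 4.33 CPM. Tubb6, a beta tubulin, was at 406 against 8.87 CPM. Pdgfa was at 1009 against 45.8 CPM. Inhbb was at 609 against 26.4 CPM, in 25 of the 39 cells.

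In the 11 endothelial-led control cells above the same number of metallothionein UMIs, Inhbb, Myc and Tubb6 had 0 UMIs. Fosl1 had 1 UMI there, at 9.85 CPM against 0.255 CPM in the other control gCap cells. Pdgfa had 5 UMIs there, at 49.2 CPM against 22.7 CPM in the other control gCap cells. These 11 cells held 56 Mt2 and 289 Mt1 UMIs, 155 of the Mt1 UMIs in 1 cell.

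Barcodes with myeloid markers and no Cdh5 or Cldn5 UMI, 32 control and 34 metastatic, had Mt1 at 1153 CPM (1036 to 1279) and 1102 CPM (1002 to 1209), with overlapping intervals between the libraries. In 10 metastatic barcodes with mesenchymal markers Mt1 was at 3132 CPM and Mt2 at 1078 CPM, where 1 barcode held 164 of 279 Mt1 UMIs, and the 2 control barcodes of that kind had 0 Mt1 UMIs.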
